A study of Mus musculus with 6 samples.

Results

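The Zfp36 family of mRNA decay factors was examined in RNA-Seq of Tregs (CD4+ regulatory T cells that restrain immune responses) sorted from B16.F10 mouse melanoma tumors. The genes described are *Zfp36*, *Zfp36l1* and *Zfp36l2*, the CCR4-NOT subunits *Cnot1* and *Cnot7*, and the AU-rich element binders *Elavl1*, *Hnrnpd* and *Khsrp*. They are 8 of the 12153 genes in the table, and all 8 passed the authors' filter on low values. The set was chosen by the measured log2 difference of *Zfp36l2*, which was lower in Tregs without the glucocorticoid receptor (GR) than in controls, so the values of *Zfp36l2* are given as a description, with no test.

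Tregs were taken 15 days after B16.F10 cells were implanted, with 3 control libraries from Nr3c1-flox mice and 3 libraries from Nr3c1-flox_Foxp3-YFP/Cre mice, named here Nr3c1-Foxp3Cre. *Nr3c1* encodes the GR, and the comparison asks what the loss of the GR changes in tumor Tregs. The animals of both groups carried the floxed allele, and Cre was driven from *Foxp3*, so deletion was directed to cells that express *Foxp3*. The control labels name no Foxp3-YFP/Cre allele, so an effect of that allele and an effect of GR loss cannot be told apart. The labels describe sorting by CD45, CD4 and CD25 after Liberase TL and DNase I digestion, whereas the study's methods describe CD45.2+ CD4+ Foxp3-YFP+ cells with a dump gate against NK1.1, TCR-γδ, B220, CD11c and CD11b. A CD45 gate would remove stromal cells and that dump gate myeloid cells. Age is not given, and nothing states that the replicates came from separate animals, so p-values measure only the spread between these libraries.

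Proteins of the Zfp36 family carry a pair of CCCH zinc fingers that bind AU-rich elements, uridine-rich stretches in the 3′ UTR of many short-lived mRNAs. They bring in the CCR4-NOT complex, which shortens the poly(A) tail and so starts decay of the mRNA. Many cytokine and growth control mRNAs are bound in this way, and in T cells the family is known for holding back activation and cytokine output.

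The core recognition letters of the family are the heptamer TATTTAT. GENCODE M21 transcripts on mm10 were searched for these letters on the sense strand, overlapping matches included. *Zfp36*, *Zfp36l1* and *Zfp36l2* each held 3 heptamers in the longest annotated 3′ UTR, of 774, 1835 and 1822 bases. The windows below are shown because the mRNAs of the family carry the letters that the family itself binds. Each window has 29 bases, reads 5′ to 3′ on the minus strand of mm10, and has the heptamer in capitals, with the coordinates of the capitals given.
Zfp36l2 site 1, chr17:84184925-84184931: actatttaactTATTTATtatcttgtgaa
Zfp36l2 site 2, chr17:84184877-84184883: tgtccatactgTATTTATcgagtatgatg
Zfp36l2 site 3, chr17:84184691-84184697: attgtatgtaaTATTTATttcattaattt
Zfp36 site 1, chr7:28376977-28376983: agtgggcccttTATTTATgacgactttat
Zfp36 site 2, chr7:28376962-28376968: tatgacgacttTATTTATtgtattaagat
Zfp36 site 3, chr7:28376937-28376943: agattttatagTATTTATatatattgggt
Zfp36l1 site 1, chr12:80108433-80108439: ttatcaaaacgTATTTATtgccaaactat
Zfp36l1 site 2, chr12:80108392-80108398: aattttgttcaTATTTATcgggatgacaa
Zfp36l1 site 3, chr12:80108178-80108184: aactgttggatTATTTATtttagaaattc
Of 11399 genes of the table with an annotated 3′ UTR, 30.3% held at least 1 heptamer and 3.97% held 3 or more. Among the other members *Elavl1* held 8, *Cnot7* held 1, and *Cnot1*, *Hnrnpd* and *Khsrp* held 0. A match describes the letters only and was not measured as a bound site.

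The targeted gene was checked first. *Nr3c1* values were 7.15, 7.59 and 6.88 log2 CPM in control libraries 1 to 3 and 6.14, 5.45 and 5.90 log2 CPM in Nr3c1-Foxp3Cre libraries 1 to 3. The groups did not overlap, and the difference, Nr3c1-Foxp3Cre minus control, was -1.38 (SE 0.21, limma adjusted p = 0.120). All 9 Treg markers examined were in the table, with a summed level of 5148 to 6974 CPM in control and 5063 to 5626 CPM in Nr3c1-Foxp3Cre libraries. *Foxp3*, 1 of the 9, had low means of 3.91 log2 CPM in control and 3.96 log2 CPM in Nr3c1-Foxp3Cre libraries, with overlapping groups. Markers of other cells were also present. Their summed levels in control and Nr3c1-Foxp3Cre libraries were 4395 to 11726 and 4925 to 11986 CPM for 8 of 8 melanoma markers, 393 to 579 and 280 to 560 CPM for 11 of 11 macrophage and monocyte markers, and 165 to 230 and 117 to 167 CPM for 4 of 6 dendritic cell markers. For 4 of 4 erythroid markers they were 97.1 to 174 and 44.2 to 115 CPM. The CD8 T and NK cell markers *Cd8a*, *Klrb1c*, *Ncr1* and *Eomes* had no row. The remaining 2 of 6 CD8 T and NK cell markers summed to 10.9 to 18.8 and 12.0 to 15.7 CPM. The fibroblast and endothelium list, 5 of 6 in the table without *Cdh5*, summed to 473, 217 and 372 CPM in control and 136, 209 and 141 CPM in Nr3c1-Foxp3Cre libraries, and the sums did not overlap between groups. Of these 5 genes, 1 was higher and 2 were lower without overlap, where 3.69% and 3.73% of all genes were. Of the 9 Treg markers 1 was lower without overlap and 0 were higher, and so it was for the 4 dendritic cell markers.

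*Zfp36l2* lies on chromosome 17 (84183931 to 84187947, mm10, minus strand). Its values were 7.96, 8.63 and 8.45 log2 CPM in control libraries 1 to 3 and 7.01, 6.66 and 6.48 log2 CPM in Nr3c1-Foxp3Cre libraries 1 to 3. Every Nr3c1-Foxp3Cre library was below every control library, with almost 1 log2 unit between the closest pair. The group means were 8.35 ± 0.35 and 6.72 ± 0.27 log2 CPM (SD, n = 3 each), a difference of -1.63, which leaves 32.3% of the control level. As geometric means the levels were 326 CPM in control and 105 CPM in Nr3c1-Foxp3Cre Tregs. In sorted bulk RNA, fewer cells that express a gene and less RNA per cell cannot be told apart. Among the 12153 genes, 6 passed the test in the lower direction, or 0.0494%, and 1 in the higher direction, or 0.00823%, which makes 0.0576% in either direction. *Zfp36l2* was the 1 member of 8 among them, a call that was lost in 6 of 15 alternatives of the fit, and since this contrast chose the members nothing is read from that count. The part of the fibroblast and endothelium list, whose sums also differed without overlap, in this difference was not tested.

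**Figure D1:**
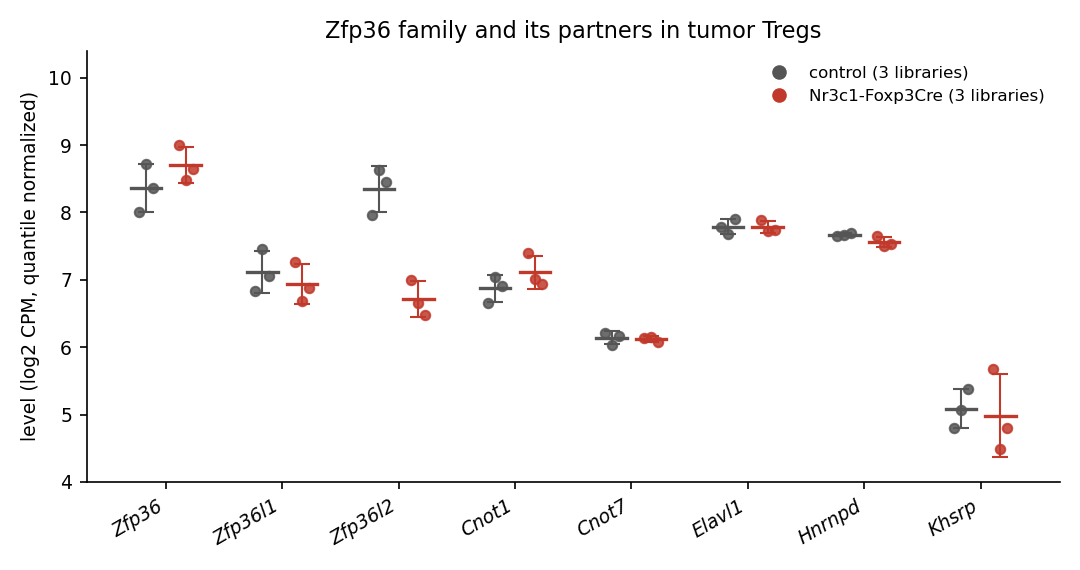
Level of the 8 genes in each library, in log2 CPM, with control and Nr3c1-Foxp3Cre libraries as separate points (n = 3 each) and the mean and SD of each group. *Zfp36l2* is at 7.96 to 8.63 in control and 6.48 to 7.01 in Nr3c1-Foxp3Cre libraries, while *Zfp36* and *Zfp36l1* overlap between the groups.

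*Zfp36* encodes tristetraprolin, the founding member of the family, and lies on chromosome 7 (28376784 to 28380253, minus strand). Its values were 8.01, 8.72 and 8.37 log2 CPM in control and 8.996, 8.48 and 8.64 log2 CPM in Nr3c1-Foxp3Cre libraries. The groups overlapped, with control replicate 2 above the Nr3c1-Foxp3Cre replicates 2 and 3. The difference was 0.34 (SE 0.19, 95% interval -0.086 to 0.76, limma adjusted p = 1.0), so a level somewhat above control and a level near control both lie in the interval.

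*Zfp36l1* is the paralog that acts with *Zfp36l2* in lymphocyte development, and lies on chromosome 12 (80107754 to 80113013, minus strand). Its values were 6.84, 7.46 and 7.05 log2 CPM in control and 7.26, 6.68 and 6.88 log2 CPM in Nr3c1-Foxp3Cre libraries. The highest library was a control, and the groups overlapped. The difference was -0.17 (SE 0.19, 95% interval -0.59 to 0.24, limma adjusted p = 1.0). The remaining mouse paralog, *Zfp36l3*, had no row in the table.

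The 3 paralogs were then set against each other within each library, which removes a factor that scales all genes of a library alike. This comparison does not remove RNA of other cells that hold the paralogs in other proportions. Levels were divided by the union of annotated exons (3470 bases for *Zfp36*, 2990 for *Zfp36l1* and 3530 for *Zfp36l2*) to give CPM per kb. *Zfp36l2* made up 38.6%, 38.4% and 41.5% of the summed CPM per kb of the family in control libraries and 15.5%, 17.3% and 14.1% in Nr3c1-Foxp3Cre libraries. The means were 39.5% ± 1.74 and 15.6% ± 1.61 (SD, n = 3 each), and the ranges did not overlap. This share, and each ratio below that involves *Zfp36l2*, uses the values that chose the set and is a description. *Zfp36* supplied 40.7% ± 0.826 of the family in control and 62.9% ± 0.998 in Nr3c1-Foxp3Cre libraries (SD, n = 3 each). *Zfp36l1* supplied 19.8% ± 1.15 and 21.5% ± 0.697. By this length, control libraries thus held *Zfp36* and *Zfp36l2* mRNA at nearly equal levels per kb, and Nr3c1-Foxp3Cre libraries held mostly *Zfp36*. The part of RNA from other cells in these levels was not tested. With the longest transcript as the length, *Zfp36* stood 0.36 log2 units above *Zfp36l2* in the control group, with overlapping libraries. Shares must sum to the whole, so the larger share of *Zfp36* follows in part from the smaller share of *Zfp36l2*. The summed family level was 183, 293 and 239 CPM per kb in control libraries and 235, 166 and 180 CPM per kb in Nr3c1-Foxp3Cre libraries, and these overlapped.

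**Figure D2:**
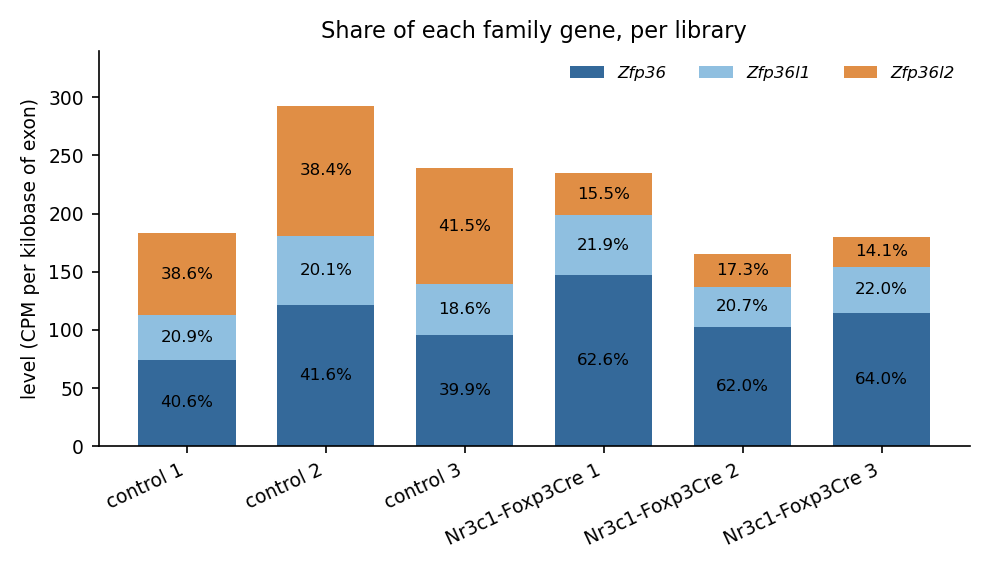
Summed level of *Zfp36*, *Zfp36l1* and *Zfp36l2* in CPM per kb, as 1 stacked bar per library on an axis that starts at 0, with the share of each gene in percent printed on its segment. The *Zfp36l2* segment is 38.4% to 41.5% of the bar in the 3 control libraries and 14.1% to 17.3% in the 3 Nr3c1-Foxp3Cre libraries.

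Ratios between paralogs were steadier than the levels themselves. The log2 ratio of *Zfp36l2* to *Zfp36* (CPM, no length correction) was -0.049, -0.090 and 0.081 in control and -1.99, -1.82 and -2.16 in Nr3c1-Foxp3Cre libraries. The group means differed by -1.97. The log2 ratio of *Zfp36l2* to *Zfp36l1* was 1.13, 1.18 and 1.40 in control and -0.26, -0.020 and -0.40 in Nr3c1-Foxp3Cre libraries, so *Zfp36l2* was the more abundant of this pair in CPM in every control library and the less abundant in every Nr3c1-Foxp3Cre library. The ratio of *Zfp36* to *Zfp36l1* does not involve *Zfp36l2*. It was 1.17, 1.26 and 1.32 in control and 1.73, 1.80 and 1.76 in Nr3c1-Foxp3Cre libraries, a difference of 0.51 with SDs of 0.072 and 0.032 and no overlap, although neither gene alone passed the test. This ratio was examined after the levels were seen, and no test was made of it.

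The T cell genes *Cd4* and *Cd3e* served as a further reference within each library, chosen after the values were seen. The log2 ratio of *Zfp36l2* to *Cd4* was -0.73, -0.69 and -0.64 in control and -2.24, -2.12 and -2.54 in Nr3c1-Foxp3Cre libraries. For *Zfp36* the ratio to *Cd4* was -0.68, -0.60 and -0.72 in control and -0.25, -0.30 and -0.39 in Nr3c1-Foxp3Cre libraries. Relative to *Cd4*, *Zfp36l2* was therefore lower by -1.61 and *Zfp36* higher by 0.36 with no overlap for either, while *Zfp36l1* differed by -0.15 and overlapped. With *Cd3e* as the reference the differences were -1.59, 0.38 and -0.13, with the same pattern of overlap.

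**Figure D3:**
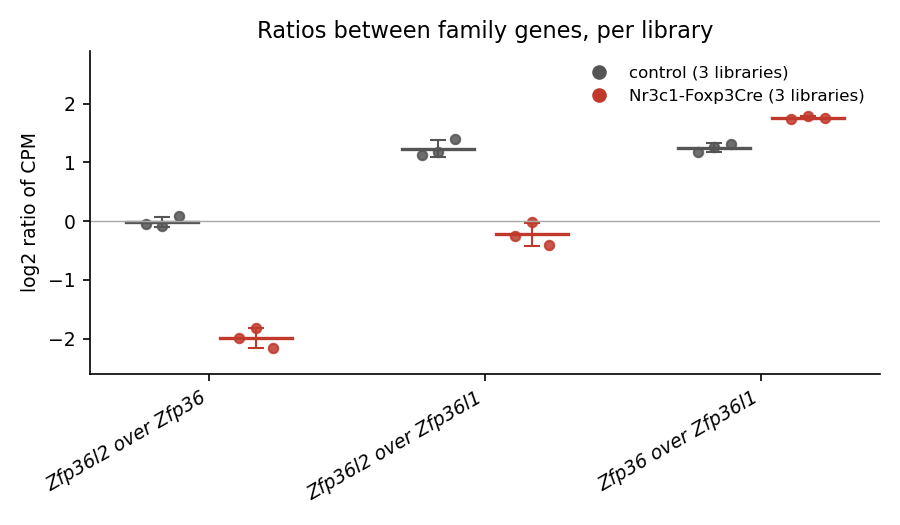
Log2 ratios of CPM between pairs of family genes in each library of control and Nr3c1-Foxp3Cre Tregs (n = 3 each), with points for libraries and lines for the mean and SD. The ratio of *Zfp36l2* to *Zfp36* lies between -0.090 and 0.081 in control and between -2.16 and -1.82 in Nr3c1-Foxp3Cre libraries, and the ratio of *Zfp36* to *Zfp36l1* is 1.17 to 1.32 and 1.73 to 1.80.

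Genes were ordered by level per kb of exon (log2 CPM per kb, mean of 3 libraries). Control libraries held *Zfp36* at 6.57, *Zfp36l2* at 6.53, *Zfp36l1* at 5.54 and *Hnrnpd* at 4.79. Below them were *Elavl1* at 4.42, *Cnot7* at 3.60, *Khsrp* at 2.97 and *Cnot1* at 2.77. *Zfp36* and *Zfp36l2* did not differ beyond their spread, and neither did *Khsrp* and *Cnot1*, whereas the other neighbours did not overlap. In Nr3c1-Foxp3Cre Tregs *Zfp36l2* stood at 4.90, after *Zfp36* at 6.91 and *Zfp36l1* at 5.36. There its libraries overlapped those of *Zfp36l1* above it and of *Hnrnpd* below it, at 4.68. These orders depend on the length used, since with the longest transcript *Elavl1* stood above *Hnrnpd* in both groups and above *Zfp36l2* in Nr3c1-Foxp3Cre Tregs.

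*Cnot1* encodes the scaffold of the CCR4-NOT complex, the surface to which Zfp36 proteins dock. Its values were 6.66, 7.05 and 6.91 log2 CPM in control and 7.39, 7.02 and 6.93 log2 CPM in Nr3c1-Foxp3Cre libraries. The groups overlapped, and the difference was 0.24 (SE 0.15, 95% interval -0.089 to 0.58, limma adjusted p = 1.0). Without Nr3c1-Foxp3Cre replicate 1 the *Cnot1* difference was 0.10, and without control replicate 1 it was 0.14. *Cnot7*, a deadenylase subunit, had means of 6.14 ± 0.098 log2 CPM in control and 6.12 ± 0.043 log2 CPM in Nr3c1-Foxp3Cre libraries (SD, n = 3 each), with a difference of -0.015 (SE 0.11, 95% interval -0.25 to 0.22, limma adjusted p = 1.0). Of 11 CCR4-NOT subunits, all in the table, 0 passed the test, 6 had a difference above 0 and 5 below (49.5% and 50.5% of all genes), and the median difference was 0.011 against -0.0014 over all genes. *Cnot11* was the only subunit without overlap, lower by -0.16 (SE 0.11, limma adjusted p = 1.0). Without overlap between groups were 7.41% of all genes.

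The adaptors of the Tob and Btg families also bring CCR4-NOT to mRNAs. All 5 were in the table, 0 passed the test, and the median difference was 0.085. The difference of *Tob2* was 0.40 (SE 0.20) and that of *Btg3* -0.16 (SE 0.13), each with overlapping groups and a limma adjusted p of 1.0.

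The other AU-rich element binders bring about different fates of the mRNA. *Elavl1* encodes HuR, which stabilizes many bound mRNAs and is thus set against the Zfp36 proteins. Its means were 7.79 ± 0.11 and 7.78 ± 0.092 log2 CPM (SD, n = 3 each), and the 95% interval of the difference was -0.23 to 0.22 (limma adjusted p = 1.0). *Hnrnpd* encodes AUF1, which can promote decay. Its values were 7.65, 7.66 and 7.69 log2 CPM in control and 7.64, 7.51 and 7.53 log2 CPM in Nr3c1-Foxp3Cre libraries. The groups did not overlap, but the gap between the closest libraries was tiny and the difference of -0.11 (SE 0.089, 95% interval -0.31 to 0.091) had a limma adjusted p of 1.0. *Khsrp* encodes KSRP, another decay-promoting binder. Its values were 4.81, 5.07 and 5.38 log2 CPM in control and 5.67, 4.49 and 4.80 log2 CPM in Nr3c1-Foxp3Cre libraries. The groups overlapped, and its difference was -0.099 with a wide 95% interval of -0.74 to 0.54. Apart from *Zfp36l2*, 0 of the other 7 members passed the test, and 1, *Hnrnpd*, was lower without overlap, where 3.73% of all genes were. Of 11 binders of AU-rich elements outside the Zfp36 family, 0 passed the test, and their median difference was -0.028.

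The rest of the decay machinery was examined from lists of known members. Of 9 measured genes of the Roquin, Regnase and Pumilio groups, other proteins that bind 3′ UTRs and trigger decay, 0 passed the test, with a median difference of 0.066. *Zc3h12a* (Regnase-1) had a difference of 0.059 and *Rc3h1* (Roquin-1) of 0.066, and *Zc3h12b* and *Nanos3* had no row. *Zc3h12c* differed by 0.30 with overlap, and *Arid5a*, whose protein protects some cytokine mRNAs from Regnase-1, by -0.12 without overlap. Of 18 decapping and 5′ to 3′ decay genes 0 passed the test, with a median difference of -0.045. In that list the decapping activator *Patl1* differed by 0.12 without overlap, and the exonuclease *Xrn1* by -0.51 (SE 0.27) with overlap.

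Of 20 other deadenylase, exosome and Ski complex genes 0 passed the test, with a median difference of -0.060. *Ttc37*, the scaffold of the Ski complex that feeds mRNAs to the exosome, had values of 4.48, 4.44 and 4.72 log2 CPM in control and 5.08, 4.90 and 4.95 log2 CPM in Nr3c1-Foxp3Cre libraries. Its groups did not overlap, with a difference of 0.43 (SE 0.15, limma unadjusted p = 0.0175, adjusted p = 1.0). *Dis3l*, a cytoplasmic exosome nuclease, differed by -0.20 with overlap. Over all 74 measured genes of these decay lists, CCR4-NOT and AU-rich element binders included, differences ran from -0.51 to 0.43 with a median of -0.025. Among them 31 were above 0 and 43 below (49.5% and 50.5% of all genes), and 0 passed the test. At an unadjusted p under 0.05 there was 1 of 74, against 3.26% of all genes.

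**Figure D4:**
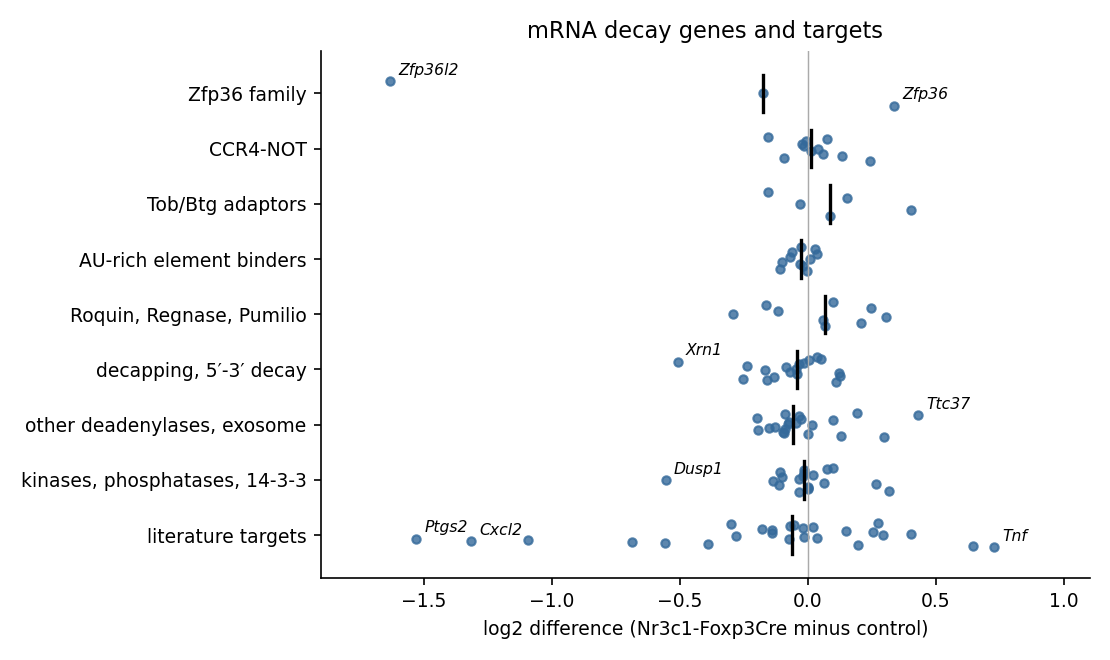
Log2 difference, Nr3c1-Foxp3Cre minus control, for every measured gene of each list, with 1 point per gene and a vertical bar at the list median. The points of the decay machinery lists lie between -0.51 and 0.43 around medians near 0. *Zfp36l2*, whose difference chose the set, lies at -1.63. The literature targets *Ptgs2* and *Cxcl2* lie at -1.53 and -1.32.

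Zfp36 proteins are switched by phosphorylation, in which the p38 MAPK pathway and its kinase MK2 restrain decay and 14-3-3 proteins bind the phosphorylated form. Of 19 kinases, phosphatases and 14-3-3 genes that act on the family, 0 passed the test, and the median difference was -0.013. *Mapk14* (p38 alpha) differed by -0.035 (SE 0.12) and *Mapkapk2* (MK2) had means of 8.10 log2 CPM in both groups. *Mapk11* (p38 beta) was higher without overlap by 0.32 (SE 0.18), as was *Mapk8* (JNK1) by 0.27 (SE 0.29), each with a limma adjusted p of 1.0.

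*Dusp1*, a phosphatase that inactivates p38 and is a known glucocorticoid-responsive gene, was the member of this list with the lowest p. Its values were 11.15, 11.51 and 11.19 log2 CPM in control and 10.63, 10.81 and 10.74 log2 CPM in Nr3c1-Foxp3Cre libraries. Every Nr3c1-Foxp3Cre library was below every control library. The difference was -0.56 (SE 0.13, limma unadjusted p = 0.00204, adjusted p = 0.652), which did not pass the test over all genes. The 3′ UTR of *Dusp1* also held 3 heptamers.

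Targets of the family known from the literature were listed without regard to cell type. Of 30 listed targets 26 were in the table, and *Il2*, *Il3*, *Il6* and *Il17a* had no row. Of the 26, 0 passed the test, and 10 were above 0 and 16 below, where 49.5% and 50.5% of all genes were. The median difference was -0.061 against -0.0014 over all genes. At an unadjusted p under 0.05 there were 1 higher and 4 lower, where 1.61% and 1.65% of all genes were. The windows below show 1 heptamer and its surroundings, in the same format, for targets whose values follow, with Cxcl2 and Ptgs2 on the plus strand and Tnf and Csf2 on the minus strand. Each of these windows was picked from a run of overlapping heptamers. Other sites of the same targets, such as *Tnf* site 8 and *Cxcl2* site 7, overlap no other heptamer. For the family's own mRNAs every site was shown, and none overlaps another.
Tnf site 5, chr17:35199682-35199688: tatttatttatTATTTATttatttgctta
Csf2 site 6, chr11:54247336-54247342: aaatatttattTATTTATttatttatttt
Cxcl2 site 4, chr5:90905347-90905353: atctatgtattTATTTATttattaattcc
Ptgs2 site 2, chr1:150105801-150105807: ctgaccatattTATTTATttatgtgaaga
*Tnf*, the classic tristetraprolin target, held 8 heptamers. Its values were 3.68, 3.69 and 3.67 log2 CPM in control and 4.31, 4.09 and 4.83 log2 CPM in Nr3c1-Foxp3Cre libraries, all 3 above the controls. The difference was 0.72 (SE 0.22, limma unadjusted p = 0.00806, adjusted p = 1.0).

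*Csf2* (GM-CSF), with 9 heptamers, differed by 0.64 (SE 0.34) with overlapping groups, and *Ifng* by 0.20 (SE 0.18). The chemokine *Cxcl2*, with 7 heptamers, had a difference below 0. Its values were 3.28, 4.60 and 3.70 log2 CPM in control and 2.83, 2.44 and 2.36 log2 CPM in Nr3c1-Foxp3Cre libraries. The groups did not overlap, and the difference was -1.32 (SE 0.34, limma unadjusted p = 0.00351, adjusted p = 0.853). *Ptgs2* (COX-2), with 6 heptamers, had values of 1.34, 2.26 and 0.35 log2 CPM in control and 0.19, -0.19 and -0.64 log2 CPM in Nr3c1-Foxp3Cre libraries, a difference of -1.53 (SE 0.54, limma unadjusted p = 0.0196, adjusted p = 1.0). *Cxcl1* differed by -0.69 without overlap and lay near 0 log2 CPM in every library. The *Ptgs2* difference was -0.75 with array weights, -0.94 on the log2(CPM + 1) scale and -1.06 without control replicate 2. *Ccl2*, another chemokine, differed by -1.09 (SE 0.47) with overlap. The fibroblast and endothelium sums, in which 2 of 5 genes were lower and 1 higher without overlap, were likewise lower without overlap in Nr3c1-Foxp3Cre libraries. Among the controls, replicate 2 had the lowest sum, at 217 CPM, and the highest *Cxcl2* and *Ptgs2* values. *Ccl2* went the other way, highest in control replicate 1 at 5.30 log2 CPM, where this sum was also highest, at 473 CPM. The macrophage and monocyte sum was highest in that library too, at 579 CPM. The part of these other cells in these differences was not tested.

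Among targets of T cells, the activation marker *Cd69* was lower without overlap by -0.30 (SE 0.12, limma unadjusted p = 0.0280, adjusted p = 1.0). *Ikzf2*, which encodes the Treg transcription factor Helios and held 3 heptamers, differed by 0.28 (SE 0.21) with overlap. *Il10* differed by -0.39 (SE 0.34), *Bcl2* by 0.40 (SE 0.29), *Icos* by -0.053 (SE 0.18) and *Myc* by -0.017 (SE 0.12), all with overlap.

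**Figure D5:**
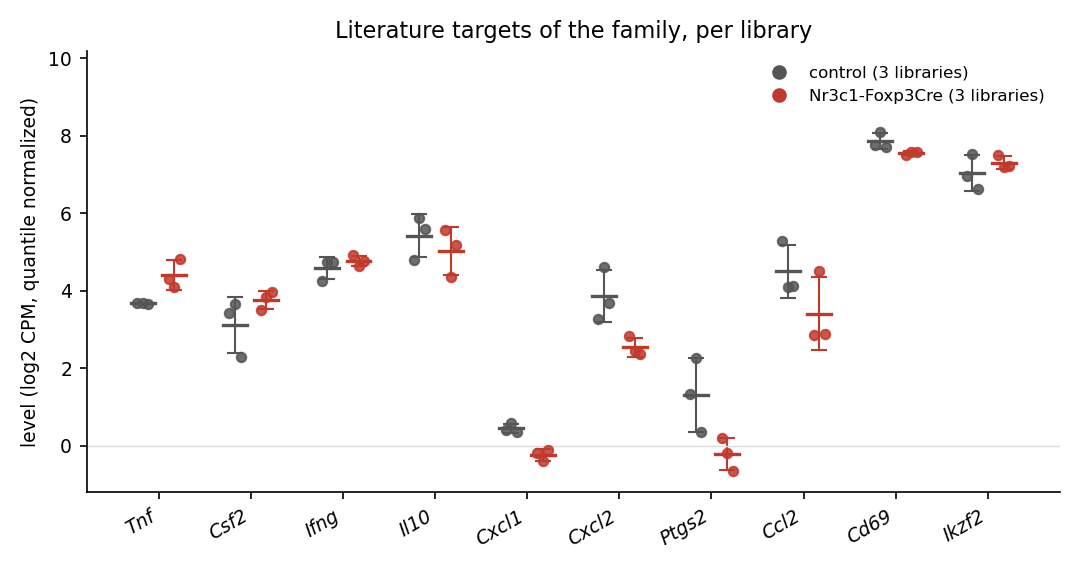
Level of the targets *Tnf*, *Csf2*, *Ifng*, *Il10*, *Cxcl1*, *Cxcl2*, *Ptgs2*, *Ccl2*, *Cd69* and *Ikzf2* in each library, in log2 CPM, for control and Nr3c1-Foxp3Cre Tregs (n = 3 each), with the mean and SD of each group. *Tnf* lies at 3.67 to 3.69 in control and 4.09 to 4.83 in Nr3c1-Foxp3Cre libraries, while *Cxcl2* and *Ptgs2* lie lower in Nr3c1-Foxp3Cre libraries.

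*Zfp36* is itself an immediate-early gene that rises with stimulation and with cell dissociation. Of 14 immediate-early and dissociation genes 0 passed the test, and 10 were above 0 and 4 below (49.5% and 50.5% of all genes). The median difference was 0.13 against -0.0014 over all genes. Without overlap 2 were higher and 1 lower, where 3.69% and 3.73% of all genes were. *Nr4a1*, a gene induced by T cell receptor signals, was higher without overlap by 0.45 (SE 0.13, limma unadjusted p = 0.00588, adjusted p = 1.0), and *Ier2* by 0.22 (SE 0.092, limma unadjusted p = 0.0370, adjusted p = 1.0). *Dusp1*, also in this list, was lower without overlap by -0.56 (SE 0.13, limma unadjusted p = 0.00204, adjusted p = 0.652). *Fos* differed by 0.037 (SE 0.10) and *Junb* by 0.22 (SE 0.15), with overlap. The part of dissociation in the values of *Zfp36* was not tested.

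Genes whose pattern was most like that of *Zfp36l2* were named by Pearson's r over the 6 libraries, among 5903 other genes with a mean of at least 5 log2 CPM. They were *Acadl* (r = 0.994), *Npc2* (r = 0.979), *3830406C13Rik* (r = 0.972), *Erp44* (r = 0.969) and *Tsc22d3* (r = 0.968). The 6 points share the group difference, so this likeness is a description. *Tsc22d3* encodes GILZ, a known glucocorticoid-responsive gene, and its difference of -1.56 was close in size to that of *Zfp36l2*, whereas *Npc2* differed by only -0.11.

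The library kit does not mark strand, so reads from a gene and from an antisense gene over the same exons cannot be told apart. *Zfp36l2* shared 105 exon bases with *AC132455.1*, *Zfp36* 125 with *Gm44710* and *Zfp36l1* 1672 with *Gm26669*, none of which had a row. *Cnot7* shared 247 exon bases with *Zdhhc2* and *Elavl1* 204 with *Ccl25*, both of which were in the table.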

How the data were processed

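RNA-Seq of Tregs from B16.F10 tumors was analysed for 3 control and 3 Nr3c1-Foxp3Cre libraries, grouped by the genotype in the sample titles and labels. Per the study's methods, the authors used Cutadapt for trimming, STAR for alignment to mm10 and RSEM with GENCODE M21 for quantification. They dropped genes under 1 CPM, applied quantile normalization and tested with limma-voom. What the authors deposited is log2 CPM after quantile normalization. Each library sums to about 999633 CPM on the linear scale, so read depth is unknown, no counting interval can be given, and the number of libraries limits the precision. The weights of voom need counts and were not remade.

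The deposited table of 12153 genes went into limma 3.58.1 (R 4.3.3), using lmFit and a trended eBayes with genotype alone in the model. Tests were two-sided, and p-values were adjusted across the whole table by the Benjamini-Hochberg method, with 0.05 as the threshold. Differences are Nr3c1-Foxp3Cre minus control on the log2 scale. The fit was also run on simulated libraries with known changes and independent noise. That noise holds no effect shared by the genes of a library, so the run cannot show how stable the calls in these libraries are. Lengths, positions and 3′ UTRs came from the GENCODE M21 annotation and transcripts on mm10, and 12130 identifiers (99.8%) matched.

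The members and the gene lists were chosen with earlier results of these data known. Named genes were the 8 members, genes of each list with an adjusted p under 0.05, up to 3 higher and 3 lower genes per list with the largest difference among those without overlap (or the largest in each direction), the 5 genes most like *Zfp36l2*, and *Nr3c1*. Further genes were named after their values were seen, for their function. They were *Cd69*, *Csf2*, *Ifng*, *Il10*, *Ccl2*, *Ikzf2*, *Fos*, *Junb*, *Myc*, *Bcl2*, *Icos*, *Mapk14*, *Mapkapk2*, *Zc3h12a*, *Rc3h1* and *Foxp3*. Alternatives were an untrended or robust eBayes, weights from vooma or per array, log2(CPM + 1), a minimum mean log2 value of 1, median centering, cyclic loess, the replicate number as a block, leaving out each library, and other gene lengths. The result of 1 list of cell type markers is not reported here.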

Additional observations from a re-analysis of the deposited data

How the results depend on the processing

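*Zfp36l2* differed by -1.83 to -1.49 over 15 alternatives of the fit, of which 6 each left out 1 library, and in each of them 0 of the other 7 members and 0 of up to 131 other pathway genes passed the test. *Zfp36l2* itself was among the called genes in 9 of the 15, and was not without a trend, with the replicate block, without control replicate 3 or without any 1 of the Nr3c1-Foxp3Cre replicates. Over those alternatives the difference of *Zfp36* was 0.16 to 0.51 and that of *Zfp36l1* -0.33 to -0.0030. The *Zfp36* value was 0.16 when control replicate 1 was left out, 0.51 when control replicate 2 was, and 0.19 when Nr3c1-Foxp3Cre replicate 1 was. The *Zfp36l1* value was -0.0030 without control replicate 2, -0.043 without Nr3c1-Foxp3Cre replicate 2, -0.31 without control replicate 1, -0.33 without Nr3c1-Foxp3Cre replicate 1 and -0.10 with array weights. *Cnot1* ranged from 0.10 to 0.34, *Cxcl2* from -1.61 to -0.94, *Ptgs2* from -2.01 to -0.75 over the 14 alternatives that kept it, *Ttc37* from 0.29 to 0.51 and *Nr4a1* from 0.27 to 0.55, with 0.27 from array weights. *Dusp1* ranged from -0.62 to -0.44 (limma adjusted p from 0.153 to 1.0) and *Tnf* from 0.51 to 0.88 (0.180 to 1.0). The signs of 3 members with differences near 0 turned when 1 library was left out. Those ranges were -0.069 to 0.024 for *Cnot7*, -0.060 to 0.051 for *Elavl1* and -0.44 to 0.15 for *Khsrp*, with positive values of 0.024, 0.0020 and 0.0099 for *Cnot7*, 0.051, 0.028 and 0.015 for *Elavl1*, and 0.048 and 0.15 for *Khsrp*. The number of genes called, 6 lower and 1 higher, was less stable. It was 12 and 7 with array weights, 0 and 0 without a trend (469 genes at an unadjusted p under 0.05), and 2 higher with vooma weights. Leaving out 1 library gave 0 to 5 lower and 0 to 3 higher genes. The lower count was 0 without control replicate 3 or Nr3c1-Foxp3Cre replicate 2, and 1 without Nr3c1-Foxp3Cre replicate 1 or 3. With the replicate number as a block, 0 and 0 genes were called (275 at an unadjusted p under 0.05). Samples of the same number did not deviate together (correlations of -0.117, -0.329 and -0.025). Correlations between samples of different numbers ran from -0.269 to 0.365. With only 3 libraries centered in each group, this check cannot decide whether the numbers pair the samples. With the longest transcript as the length, *Zfp36l2* made up 35.9% of the family in control and 13.6% in Nr3c1-Foxp3Cre libraries. The causes of these shifts were not tested. With 3 libraries a group, small differences of single genes could not be resolved.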

Other observations

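Genes with the heptamer TATTTAT in the 3′ UTR were compared with genes without it. The median difference, Nr3c1-Foxp3Cre minus control, was -0.010 over 7944 genes with none, 0.012 over 2219 genes with 1, 0.023 over 783 genes with 2 and 0.022 over 453 genes with 3 or more. The median 3′ UTR length of these classes was 867, 1830, 2556 and 3151 bases. Genes with a heptamer thus stood 0.025 above genes without. With each gene centered on its mean over the 6 libraries, the median of genes with a heptamer minus that of genes without was -0.039, 0.012 and -0.016 in control and 0.075, -0.00031 and -0.023 in Nr3c1-Foxp3Cre libraries, so the groups overlapped and the gap was smaller than the pooled SD of 0.040. Genes were also split into 4 classes of similar size by 3′ UTR length. The medians without and with a heptamer were -0.025 and -0.026 in the class of the shortest 3′ UTRs, and 0.0094 and 0.030 in that of the longest. In the classes between they were -0.012 and -0.0077 (510 to 1174 bases), and 0.014 and 0.016 (1175 to 2270 bases). Over 9 alternatives the gap was -0.0024 to 0.047. Genes are not independent replicates, and no test was made over them.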
